A study of Mus musculus with 25 samples.

Results

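The difference between CLA-treated and LA control 3T3-L1 adipocytes was compared between 24 h and 12 h of treatment. The quantity reported here is a difference of differences: CLA minus LA at 24 h, minus CLA minus LA at 12 h, taken within each of replicate numbers 1, 2 and 3 and then compared over these 3 numbers. It rests on 12 of the series' 25 arrays, 3 in each of 4 groups: CLA at 24 h, LA at 24 h, CLA at 12 h and LA at 12 h. The fourth replicate at 12 h was left out of it and was used only as a separate 12 h value. 3T3-L1 is an established mouse line of preadipocytes that is differentiated into fat cells in culture. The labels do not expand the letters LA and CLA, and dose, isomer and time after differentiation were not given in them. The labels call the samples biological replicates without saying what was separate, so the p-values measure only the spread between these samples, and each group is a culture of this 1 line.

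Fat cells in culture make and store triglyceride, and they carry a dense set of mitochondria that supply acetyl-CoA and energy for this. Their lipid-making genes are switched on by insulin-responsive factors of the SREBP family and by PPARgamma, the factor that keeps a fat cell a fat cell. In adipocyte work CLA usually stands for conjugated linoleic acid, a fatty acid known to lower fat storage in cultured fat cells.

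Per array, 1 intensity per probe set was deposited, and values here are on the log2(intensity + 9.75) scale after quantile normalisation, where 9.75 is the 50th percentile of all values. The 12 arrays had mean intensities between 104.4 and 149.2. Of the adipocyte markers on the arrays, 8 of 10 were found, and all 8 lay above the array median on all 12 arrays. Their summed intensity was 17935 to 28983 in CLA at 24 h, 28711 to 38364 in LA at 24 h, 24107 to 26693 in CLA at 12 h and 30201 to 35085 in LA at 12 h. Of 7 macrophage markers, 4 (Cd68, Ptprc, Itgam and Lyz2) lay at or below the median on at least 1 array, and none had a median intensity above 200. The macrophage sum was 234 to 414 in CLA and 161 to 239 in LA at 24 h, and 182 to 482 in CLA and 110 to 438 in LA at 12 h. The fibroblast markers, which preadipocytes share, were all present (8 of 8), with sums of 20792 to 31979 in CLA and 16056 to 27880 in LA at 24 h, and 17683 to 31726 in CLA and 13658 to 29211 in LA at 12 h. In these cultures, fewer adipocytes and less of a transcript per adipocyte cannot be told apart. The arrays of replicate number 1 had a higher ratio of 3′ to 5′ actin signal, a sign of shortened RNA: 3.27 in CLA and 3.32 in LA at 24 h, 2.83 in CLA and 5.67 in LA at 12 h, against 1.43 to 1.73 on the 8 arrays of numbers 2 and 3. Several results that differ between number 1 and the other numbers are given by number below, others only as means. The part of RNA quality in them was not tested.

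Of 11906 genes tested, none passed an adjusted p under 0.05 in limma's test over the 3 double differences, which is 0% in either direction, with a smallest adjusted p of 0.627. Without adjustment, p was under 0.05 for 391 genes with a higher CLA effect at 24 h (3.28%) and 475 with a lower one (3.99%). With the spread pooled over 11 CLA and LA pairs of all 4 times, 0 genes passed as well (0%), and 125 had an unadjusted p under 0.05. An exact sign-flip test over 3 numbers cannot go below a two-sided p of 0.25. When limma's prior on the spread was allowed to follow the expression level (a trend), 20 genes passed. Of these, 18 had a lower CLA effect at 24 h (0.151% of all genes tested) and 2 a higher one (0.0168%). The prior was worth 9.18 residual degrees of freedom with it and 3.57 without it. With the offset at the 75th percentile and no trend, 10 genes passed (0.084% of 11911), and all 10 were among the 20. No gene passed the test as designed, and the 20 genes below passed only under these other settings, so they are described by their values. Most of them were chosen for naming after their values were seen.

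The 18 genes with the lower effect were largely genes whose CLA arrays were already below LA at 12 h and were further below at 24 h, among them several fat-cell genes. In 17 of the 18 the mean CLA effect was below 0 at both times. From 12 h to 24 h the mean of the CLA arrays fell in all 18, and that of the LA arrays rose in 17. Thrsp, the thyroid-responsive Spot 14 protein of lipid-making tissues, had the lowest 24 h effect of the 20. Its intensity was 40.7, 166.1 and 88.6 in CLA against 736.1, 3558.8 and 2360.6 in LA at 24 h (numbers 1, 2 and 3). At 12 h it was 111.8, 280.7 and 244 in CLA against 455.6, 3278.3 and 1995 in LA. CLA and LA arrays did not overlap at either time, and the LA arrays of number 1 were far dimmer than those of numbers 2 and 3. The CLA effect was a log2 difference of -4.48 at 24 h and -2.90 at 12 h, a change of -1.58 ± 0.22 (SE, n = 3; adjusted p = 0.627 as designed and 0.0115 with a trend). The 3 double differences were -1.96, -1.10 and -1.68. Its other probe sets gave changes between -1.33 and -0.04.

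Cidec, a protein of the lipid droplet surface that lets droplets fuse, had intensities of 608, 1184.3 and 299.8 in CLA against 1909.3, 4469.7 and 2014.5 in LA at 24 h. At 12 h these were 712.6, 2087.7 and 801.6 in CLA against 872, 4438.3 and 2141.7 in LA. At 24 h the groups were separate, while at 12 h the LA array of number 1 lay among the CLA arrays. The effect was -2.17 at 24 h and -0.95 at 12 h, a change of -1.22 ± 0.18 (adjusted p = 0.627, 0.0115 with a trend). Adig, the small adipocyte membrane protein adipogenin, had a change of -1.42 ± 0.25, with an effect of -2.58 at 24 h and -1.16 at 12 h. Retn, the adipocyte hormone resistin, was bright in every group, at 2880.5, 1679.4 and 1416.4 in CLA against 5607.9, 4453.6 and 4925.4 in LA at 24 h. At 12 h it stood at 2589.9, 2569.6 and 2738.6 in CLA against 3598.7, 4567.4 and 4670.7 in LA. All CLA arrays lay below all LA arrays at both times, and the change was -0.68 ± 0.18, a wider gap at 24 h. Scd1, the desaturase that makes oleate, had an effect of -1.15 at 24 h and -0.51 at 12 h.

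Other secreted or membrane proteins of this group were Mrap, Apoc1, C1qtnf12, Orm1 and Camp. Mrap, which carries melanocortin receptors to the cell surface, had an effect of -2.83 at 24 h and -1.29 at 12 h, a change of -1.53 ± 0.22, but its other probe set gave 0.05. Apoc1, a small apolipoprotein, had 125.4, 77.8 and 154.8 in CLA against 617.5, 883.5 and 943.8 in LA at 24 h. At 12 h it had 71.5, 100 and 207.8 in CLA against 139.7, 582.2 and 544.2 in LA. Its CLA arrays were alike at both times and its LA arrays were brighter at 24 h: the mean difference between 24 h and 12 h was -0.14 in CLA and 1.06 in LA. C1qtnf12, the insulin-sensitising hormone adipolin, had a change of -1.16 ± 0.18, and its other probe sets gave changes between -1.18 and -0.006. Orm1, an acute phase protein, had a change of -0.97 ± 0.20, and Camp, the antimicrobial peptide cathelicidin, one of -1.35 ± 0.19.

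Metabolic and stress-related genes made up the rest. Gpt, the enzyme that turns alanine into pyruvate, had a change of -1.31 ± 0.18, with 69, 71 and 67 in CLA against 249.2, 414.8 and 358.6 in LA at 24 h. Its other probe set gave 0.25. Cdo1, which oxidises cysteine, had an effect of -1.36 at 24 h and -0.48 at 12 h, and the 3 values at 24 h (-1.57, -1.24 and -1.28) all lay below those at 12 h (-0.59, -0.56 and -0.30). Gchfr, which restrains the first enzyme of tetrahydrobiopterin synthesis, had a change of -1.34 ± 0.22, and S100a1, a calcium-binding protein, one of -1.12 ± 0.24. Sdhb, the iron-sulphur subunit of succinate dehydrogenase, had 1964.6, 903.8 and 930.3 in CLA against 3290.9, 2188.5 and 2140.4 in LA at 24 h. At 12 h it had 1933.5, 1285.2 and 1507.3 in CLA against 1957.7, 2185.4 and 1683.5 in LA. The groups overlapped at 12 h and not at 24 h, and the change was -0.76 ± 0.18. Bnip3 marks mitochondria for removal and Ero1a is an oxidase of the endoplasmic reticulum, and both are known targets of the hypoxia response. Bnip3 had a change of -0.85 ± 0.18. Ero1a had a change of -1.05 ± 0.23, although its effect at 24 h ran from -2.73 in number 2 to 0.23 in number 1.

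Noct, or nocturnin, an NADP(H) phosphatase with a daily rhythm, was the only one of the 18 whose mean effect was on opposite sides of 0. Its intensities were 546.7, 268.2 and 124.4 in CLA against 796.8, 591.5 and 288.7 in LA at 24 h. At 12 h they were 717, 777.3 and 415.4 in CLA against 542, 492.9 and 397.6 in LA. Within each number CLA was below LA at 24 h and above it at 12 h, apart from -0.02 in number 3 after normalisation. The effect was -0.97 at 24 h and 0.37 at 12 h. In the fourth 12 h pair it was -0.41, on the same side of 0 as at 24 h.

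The pair with the higher effect at 24 h was Hs3st2 and Serpina3n. Hs3st2, a sulfotransferase of heparan sulfate, had 469.9, 398.1 and 462.2 in CLA against 239.4, 155.7 and 171.8 in LA at 24 h. At 12 h it had 211.2, 332.3 and 229.9 in CLA against 503.9, 269.4 and 423.4 in LA. CLA lay above LA throughout at 24 h and below it in numbers 1 and 3 at 12 h. The effect was 1.24 at 24 h and -0.63 at 12 h, a change of 1.88 ± 0.30. In the authors' deposited table the same difference was 0.33. The other probe sets of Hs3st2 gave changes of 0.25 and 1.03. Serpina3n, a secreted serine protease inhibitor with close paralogues, had an effect of 1.85 at 24 h and 0.54 at 12 h, a change of 1.30 ± 0.18. Its 12 h effect was -0.50 in number 1 against 0.95 and 1.18 in numbers 2 and 3.

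All 3 double differences shared a sign in each of the 20 genes, while over all genes tested 14.6% had all 3 below 0 and 15.3% all 3 above. These genes were selected on the same values, so nothing is read from their own share. Number 1 stood apart in level: it had the highest of the 3 effects, that is the one nearest or above 0, for 17 of the 18 at 24 h (34.1% of all genes) and for 16 at 12 h (31.7%). Without number 1 and with a trend, 276 genes passed as lower and 218 as higher, the 20 among them. The same arrays without a trend gave 0 genes, with a smallest adjusted p of 0.242 in limma's test. The large count thus depended on the variance prior, with fewer double differences to measure the spread. This combination was also chosen after seeing the data, so nothing is read from its count. Without number 3 and with a trend, 0 genes passed.

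**Figure D1:**
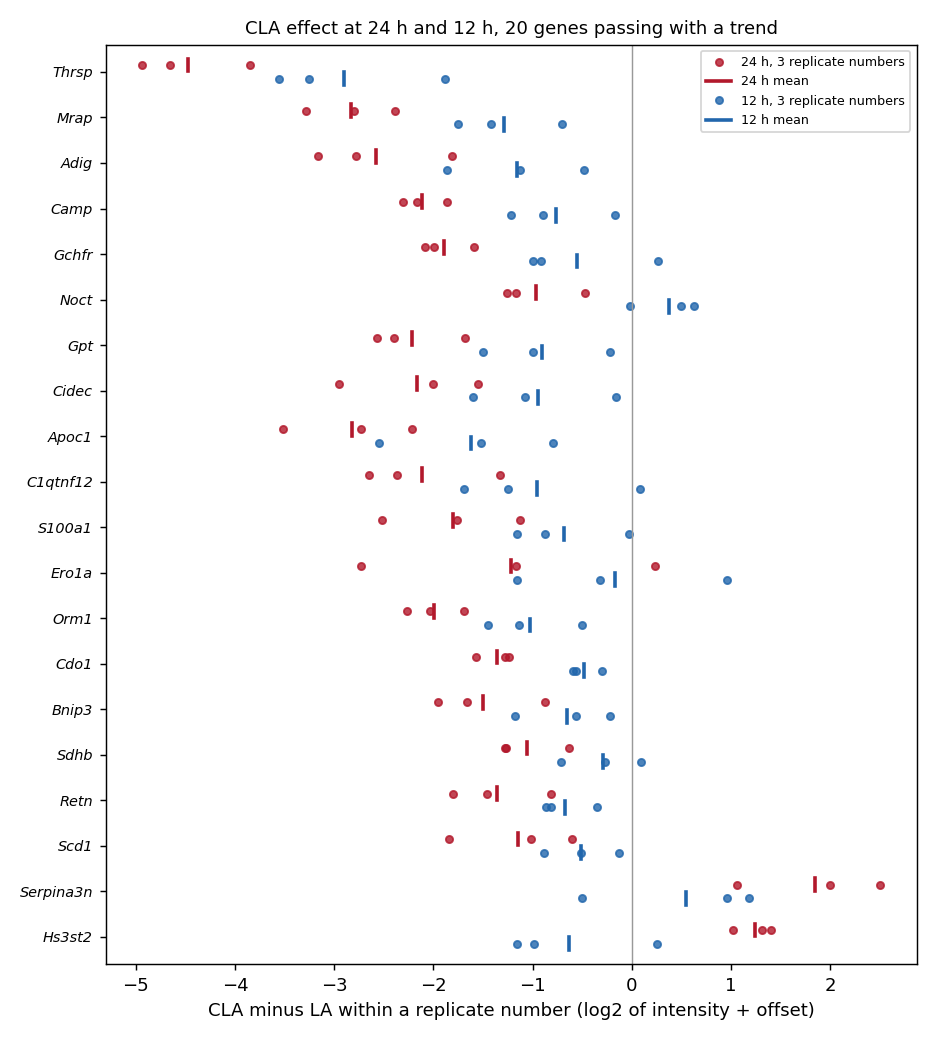
CLA effect at 24 h (red, upper row of each gene) and 12 h (blue, lower row), as log2 CLA minus LA within a replicate number, for the 20 genes that passed with a trend. Dots are the 3 replicate numbers and bars their means; Thrsp lies furthest left, at -4.48 at 24 h and -2.90 at 12 h, and only Serpina3n and Hs3st2 have their 24 h values to the right of their 12 h values.

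Genes of cholesterol synthesis and its control had a median CLA effect slightly below 0 at 24 h and slightly above 0 at 12 h. The median effect of the 20 genes tested (of 25 listed) was -0.19 at 24 h and 0.24 at 12 h. The median change was -0.37, and it was -0.37, -0.36 and -0.43 in numbers 1, 2 and 3, against -0.002 over all genes tested. The list's median difference between 24 h and 12 h was -0.11 in CLA and 0.21 in LA, with the larger shift in LA. All 3 double differences were below 0 for 13 of the 20 genes (14.6% of all genes) and all 3 above for 0 (15.3%). This list, the other lists and the key genes were chosen with earlier results of these data known. Their shares are therefore given as a description only. The mean change was below 0 for 18 of the 20, and for 5988 of all 11906 genes tested. An unadjusted p under 0.05 was found for 8 lower genes (3.99% of all genes) and for 0 higher ones, and 0 passed after adjustment, with or without a trend. The mean effect was below 0 at 24 h and above 0 at 12 h in 11 of the 20, and in 1598 of all 11906 genes tested. In numbers 1, 2 and 3 the list's median effect was 0.12, -0.27 and -0.16 at 24 h. At 12 h it was 0.48, 0.08 and 0.05, so in number 1 the median lay above 0 at both times. With the fourth 12 h pair as the only 12 h value, 15 of the 20 still lay lower at 24 h (53% of all genes).

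Cyp51, the lanosterol demethylase, had 449.9, 570.7 and 166.3 in CLA against 391.4, 1212.9 and 429.6 in LA at 24 h. Its 12 h intensities were 433.5, 1187.5 and 353.2 in CLA against 269.6, 1128.8 and 321.1 in LA. CLA was below LA at 24 h in numbers 2 and 3 only, and above LA at 12 h in all 3. The effect was -0.75 at 24 h and 0.33 at 12 h, a change of -1.08 ± 0.24 (adjusted p = 0.665, 0.0586 with a trend). Pmvk, Mvd and Fdps catalyse successive parts of the mevalonate route, and their changes were -0.85 ± 0.20, -0.69 ± 0.19 and -0.56 ± 0.17. The other probe set of Fdps gave a change of 0. Mvd, which makes isopentenyl diphosphate, had 68.6, 81 and 80.8 in CLA against 77.7, 86.7 and 61.3 in LA at 24 h. The intensities at 12 h were 61.6, 109.1 and 161.8 in CLA against 39.9, 90.6 and 62.7 in LA, so that the groups overlapped at both times and CLA was the higher within each number at 12 h. Hmgcs1, which makes HMG-CoA, had a change of 0.01 and is given because its promoter is mentioned next.

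Promoter sequences of 250 bases before to 50 after the start of a gene were looked up in RefSeq (GRCm38.p6) for this list, since most of its genes had double differences below 0 in all 3 numbers. A promoter was found for 16 of the 20 genes. The letters CCAAT, or ATTGG on the other strand, stood in a promoter of 16 of these 16 genes, and in 37.4% of all 32851 promoters (41.1% of genes). The sterol element letters TCACNCCAC, on either strand, stood in the promoter of 1 of the 16, Hmgcs1, and in 1.24% of all promoters. A match of letters is a description and not a binding site. The promoters of Cyp51 and Mvd are shown as members of the list with a large change, and that of Thrsp as the gene with the lowest effect, all on the strand of the gene. CCAAT and ATTGG are in capitals and do not overlap each other. None of the shown stretches holds the letters TCACNCCAC on either strand, and looser forms of the sterol element were not searched.
Cyp51, chr5:4104648-4104947, minus strand: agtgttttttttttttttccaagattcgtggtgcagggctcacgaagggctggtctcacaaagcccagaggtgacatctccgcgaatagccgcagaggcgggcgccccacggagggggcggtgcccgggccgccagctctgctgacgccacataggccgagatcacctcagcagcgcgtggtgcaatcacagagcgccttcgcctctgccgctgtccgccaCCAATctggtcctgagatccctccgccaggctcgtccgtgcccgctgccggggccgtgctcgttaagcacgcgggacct
Mvd, chr8:122443373-122443672, minus strand: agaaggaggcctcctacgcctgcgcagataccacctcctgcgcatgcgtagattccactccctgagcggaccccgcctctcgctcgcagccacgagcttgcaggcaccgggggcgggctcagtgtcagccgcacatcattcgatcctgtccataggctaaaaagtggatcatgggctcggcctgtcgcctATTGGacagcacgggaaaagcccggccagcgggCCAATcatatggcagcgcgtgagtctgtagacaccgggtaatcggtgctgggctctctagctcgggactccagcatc
Thrsp, chr7:97417501-97417800, minus strand: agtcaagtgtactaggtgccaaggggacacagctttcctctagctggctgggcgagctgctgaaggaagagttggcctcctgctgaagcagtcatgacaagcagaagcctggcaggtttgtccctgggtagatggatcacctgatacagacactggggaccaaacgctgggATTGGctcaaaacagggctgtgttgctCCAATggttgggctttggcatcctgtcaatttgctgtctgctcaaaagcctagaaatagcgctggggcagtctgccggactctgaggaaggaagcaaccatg
Counted from the first base of each stretch, the match begins at base 222 in Cyp51, at 191 and 224 in Mvd, and at 172 and 199 in Thrsp. Of the 20 genes that passed with a trend, 13 had a promoter in the table, and 6 of these held CCAAT on either strand.

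**Figure D2:**
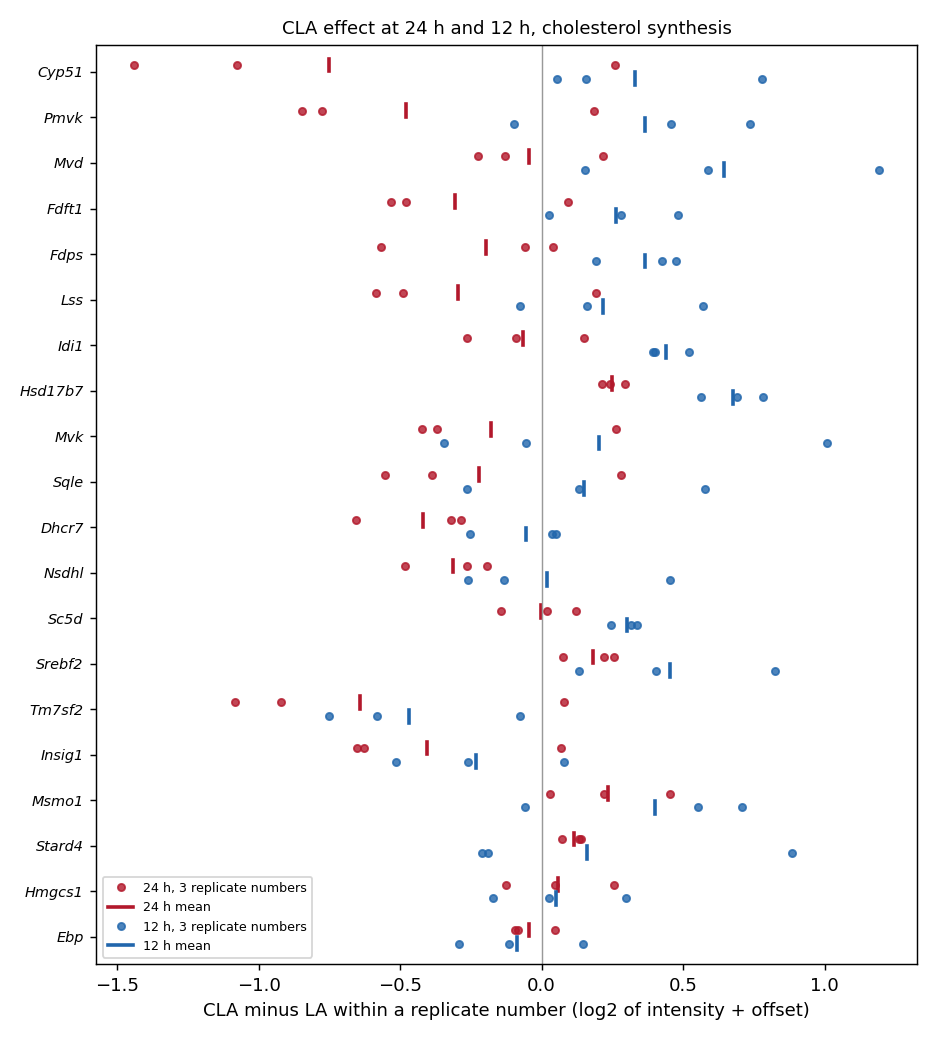
CLA effect at 24 h (red, upper row of each gene) and 12 h (blue, lower row), as log2 CLA minus LA within a replicate number, for the 20 cholesterol genes tested, ordered by their change. Dots are the 3 replicate numbers and bars their means. For 11 genes the blue bar lies right of 0 and the red bar left of it, as for 1598 of all 11906 genes tested.

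Lists of mitochondrial genes had median changes below 0, with a median effect that was already below 0 at 12 h. In number 1 the 12 h median was nearer 0. It was -0.06 for the TCA cycle, -0.03 for the respiratory chain, 0.004 for the mitochondrial ribosome and 0.07 for fatty acid oxidation. In the TCA cycle list the median effect of 23 genes was -0.59 at 24 h and -0.34 at 12 h, a median change of -0.25, with -0.31, -0.25 and -0.19 in numbers 1, 2 and 3. The list's median difference between 24 h and 12 h was -0.21 in CLA and 0.06 in LA. All 3 double differences were below 0 for 14 of the 23 and above 0 for none (14.6% and 15.3% of all genes). Pdhb, a subunit of pyruvate dehydrogenase, had 2145.5, 1132.2 and 994.7 in CLA against 3220.5, 2596.4 and 1990.5 in LA at 24 h. Values at 12 h were 2249.2, 1643.8 and 1556.8 in CLA against 2424.1, 2688.1 and 1889.8 in LA. CLA was below LA in each number at both times before normalisation, by more at 24 h, with a change of -0.57 ± 0.16 (adjusted p = 0.665, 0.077 with a trend). The isocitrate dehydrogenase subunits Idh3b and Idh3g had changes of -0.37 ± 0.16 and -0.39 ± 0.16, and Idh3a one of -0.34 ± 0.18. The other probe sets of Idh3a gave changes between -0.05 and 0.09. Apart from Sdhb with a trend, no member passed.

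The respiratory chain and ATP synthase list had a median effect of -0.50 at 24 h and -0.26 at 12 h over 69 genes. Its median change was -0.25, and 42 of the 69 had all 3 double differences below 0, against 1 with all 3 above (14.6% and 15.3% of all genes). The members of complex III and complex I given next were named for the smallest p of the list in the pooled fit. Their changes lay further below 0 than the list median. Uqcrfs1, the Rieske iron-sulphur protein, had a change of -0.66 ± 0.21 and Uqcr11 one of -0.58 ± 0.19, while Ndufs3 and Ndufa9 of complex I had changes of -0.43 ± 0.17 and -0.38 ± 0.17. The median was nearer 0 in number 2 (-0.10) than in numbers 1 and 3 (-0.35 and -0.22). Cox7a1, a tissue-restricted subunit of cytochrome oxidase, had an effect of -2.001 at 24 h and -1.29 at 12 h, with a change of -0.71 ± 0.35 that came mostly from number 3 (-1.75). The mitochondrial ribosome list was nearer 0, with a median change of -0.14 over 70 genes, and 0.03 in number 2. Of the 70, 24 were below 0 in all 3 numbers (14.6% of all genes). For regulators of mitochondrial number the median change was -0.10 over 17 genes, and 0.01 in number 2. Ppargc1a, the coactivator PGC-1alpha, had -0.19 ± 0.16, and its other probe sets gave changes between -0.27 and 0.14.

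Fuel-burning routes had medians of like size. For mitochondrial fatty acid oxidation the median effect of 20 genes was -0.59 at 24 h and -0.27 at 12 h, a median change of -0.31. Of the 20, 11 were lower in all 3 numbers and 2 higher (14.6% and 15.3% of all genes). Echs1, Decr1 and Acadvl, enzymes of the beta-oxidation cycle, had changes of -0.76 ± 0.20, -0.66 ± 0.19 and -0.62 ± 0.17. Cpt1a, which lets fatty acids into the mitochondrion, had a change above 0, with 204.8, 146 and 307.4 in CLA against 183.9, 72.7 and 94.9 in LA at 24 h. Its 12 h intensities were 158, 115.9 and 167.1 in CLA against 153.6, 77.1 and 147.5 in LA. Its CLA value was the higher within every number at both times, and the change of 0.64 ± 0.31 came mostly from number 3 (1.49, against 0.04 and 0.37 in numbers 1 and 2). For breakdown of branched-chain amino acids the median effect of 22 genes was -0.87 at 24 h and -0.59 at 12 h, a median change of -0.27. Of the 22, 15 were lower in all 3 numbers and 0 higher (14.6% and 15.3% of all genes). Bckdha and Bckdhb form the dehydrogenase that commits these amino acids to breakdown and Dbt is its transferase, and they had changes of -0.94 ± 0.27, -0.65 ± 0.17 and -0.67 ± 0.20. Hibadh, of the valine route, had -0.31 ± 0.16. None of these genes passed the adjusted test, with or without a trend.

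**Figure D3:**
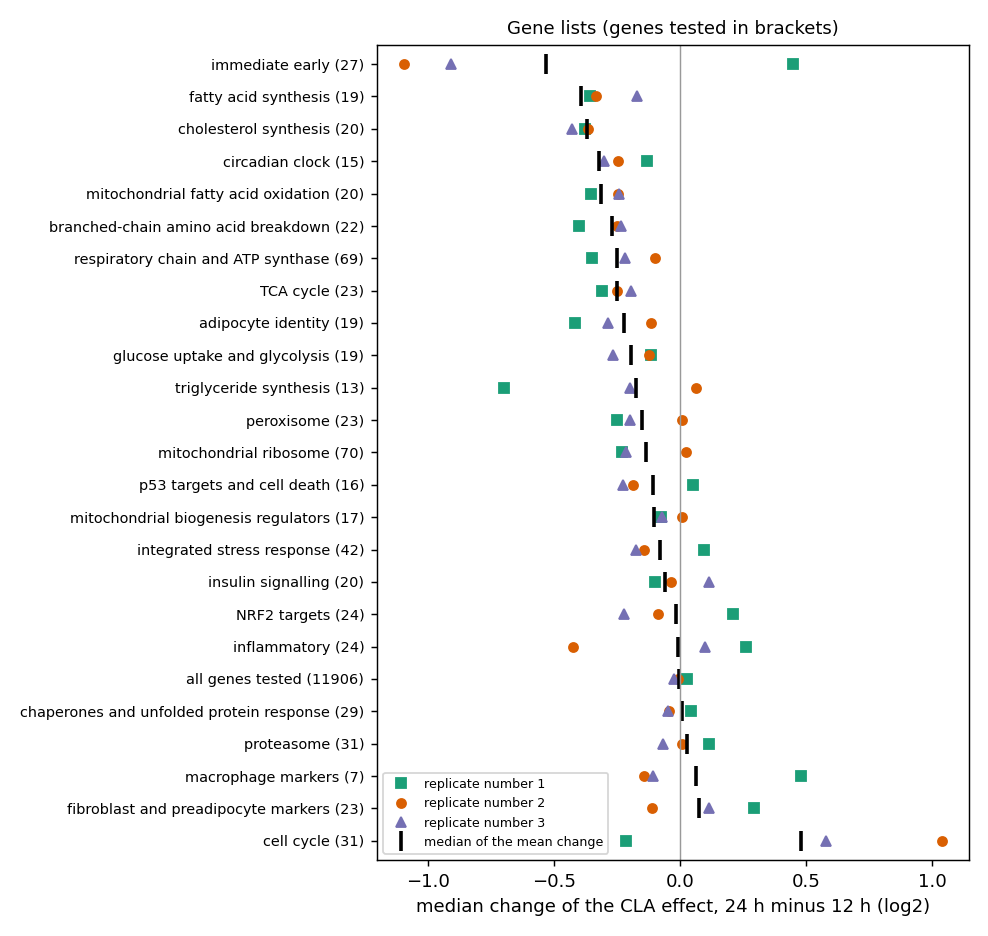
Median change of the CLA effect, 24 h minus 12 h (log2, horizontal axis), for 24 gene lists and all genes tested. Squares, circles and triangles are replicate numbers 1, 2 and 3, and the black bar is the median of the genes' mean changes; the cholesterol list has its 3 numbers together at -0.37, -0.36 and -0.43, while the immediate early and cell cycle lists have number 1 on the other side of 0.

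Fat synthesis genes had a median effect of -0.60 at 24 h and -0.24 at 12 h over 19 genes, a median change of -0.39. Their median difference between 24 h and 12 h was 0.0008 in CLA and 0.21 in LA, with the larger shift in LA. Of the 19, 12 were lower in all 3 numbers (14.6% of all genes). Thrsp and Scd1 passed with a trend. Me1, which supplies NADPH, and Elovl1, an elongase of long fatty acids, had changes of -0.67 ± 0.23 and -0.49 ± 0.22. The central enzymes had changes nearer 0 than Thrsp and Scd1. Fasn, fatty acid synthase, had an effect of -1.99 at 24 h and -1.60 at 12 h, a change of -0.39 ± 0.18. Acaca, acetyl-CoA carboxylase, had -0.37 ± 0.19 and Acly, ATP citrate lyase, -0.42 ± 0.21. The other probe set of Acaca gave 0.19, and those of Acly gave changes between -0.38 and 0.09. Srebf1, the lipogenic transcription factor, had 0.05 ± 0.21, with an effect of -0.42 at 24 h and -0.47 at 12 h. Of triglyceride synthesis, 4 of 13 genes were lower in all 3 numbers (14.6% of all genes). Gpat3, an acyltransferase of its first step, had -0.86 ± 0.22 and Lpin1, a phosphatidate phosphatase, -0.13 ± 0.30. Mogat1 had -1.004 ± 0.19, but its intensities were 20.1 or less on all 12 arrays.

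Adipocyte identity genes split. The list's median effect was -1.05 at 24 h and -0.57 at 12 h, a median change of -0.22. Of its 19 genes, 9 were lower in all 3 numbers and 3 higher (14.6% and 15.3% of all genes). Cidec, Adig and Retn passed with a trend. Klf15, a transcription factor of mature fat and muscle cells, was near the floor in CLA, with 15.8, 16.6 and -0.6 in CLA against 206.8, 342.5 and 265.4 in LA at 24 h. The intensities at 12 h were 19.6, 15.2 and -9.8 in CLA against 75.5, 212.7 and 141.9 in LA. The CLA arrays were alike at both times and the LA arrays were brighter at 24 h within each number, which gave a change of -0.97 ± 0.21. Pparg, the master factor of the lineage, had an effect of -0.87 at 24 h and -0.57 at 12 h, a change of -0.29 ± 0.17. Cebpa, its partner, had -1.34 at 24 h and -1.44 at 12 h, a change of 0.09 ± 0.24. Adipoq, the hormone adiponectin, had -0.29 ± 0.16 and Lpl, lipoprotein lipase, -0.09 ± 0.16. Fabp4, the fatty acid carrier of fat cells, gave -0.05 ± 0.16, and its other probe sets gave changes between -0.10 and 0.64. Fabp4 was among the brightest signals on each array, where quantile normalisation gives arrays the same value. Slc2a4, the insulin-responsive glucose transporter GLUT4, had an effect of -2.35 at 24 h and -1.75 at 12 h, with double differences of -1.24, 0.15 and -0.72. In the glucose list, 8 of 19 genes were lower in all 3 numbers (14.6% of all genes). Pfkfb3, which speeds glycolysis through fructose 2,6-bisphosphate, had -0.73 ± 0.17 and Hk2, hexokinase II, -0.64 ± 0.18.

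For immediate early genes, which answer growth factors and stress within minutes to hours, CLA remained above LA at 24 h but by less than at 12 h in numbers 2 and 3. The median effect of 27 genes was 0.81 at 24 h and 1.14 at 12 h, and the median change was -0.53. It was -1.09 in number 2 and -0.91 in number 3, but 0.45 in number 1. All 3 double differences were below 0 for 7 of the 27 and above 0 for none (14.6% and 15.3% of all genes). Atf3, a stress-induced transcription factor, had 244, 201.2 and 174.8 in CLA against 12.3, 8.3 and 20.1 in LA at 24 h. Values at 12 h were 204.2, 526.3 and 339.6 in CLA against 2.8, 16.3 and 3.9 in LA. The groups were far apart at both times, and the change was -1.23 ± 0.29 (adjusted p = 0.665, 0.134 with a trend). The dim LA values were higher at 24 h in numbers 1 and 3. Ptgs2, the inducible cyclooxygenase, had -1.14 ± 0.28, with an effect of 1.69 at 24 h and 2.84 at 12 h. Its LA intensities were 11 or less on all 6 arrays, close to the offset, and with the offset at the 75th percentile the change was -0.57. With the fourth 12 h pair as the only 12 h value, the change had the other sign, 0.14 for Atf3 and 0.32 for Ptgs2.

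Number 1 differed from the other numbers in most of these genes. Ereg, the growth factor epiregulin, had 237.2, 178.6 and 65.1 in CLA against 25, 10.8 and 23.2 in LA at 24 h. Its 12 h intensities were 183, 870 and 436.4 in CLA against 50.4, 7.8 and 14.8 in LA. CLA was above LA throughout, and the double differences were 1.01, -2.63 and -3.13, which left a change of -1.58 ± 0.80. Ier3, a survival gene, had 0.45, -2.17 and -2.30, and the ERK phosphatase Dusp6 had 0.09, -1.09 and -1.65. Its relative Dusp5 had 1.31, -1.80 and -1.73, but its LA intensities were below 0 on 4 of 6 arrays, so the size of these values depends on the offset. Egr1, a zinc finger factor, had 1.05, -1.25 and -0.72. A pair of targets of the NRF2 oxidant response split the same way: Hmox1, heme oxygenase, had 0.22, -1.87 and -1.34, and Srxn1, sulfiredoxin, had 0.87, -1.17 and -1.07. Their 12 h effects in number 1 were the lowest of the 3, at 1.28 for Hmox1 and 1.498 for Srxn1. The LA array of number 1 at 12 h had the actin ratio of 5.67, and its part in this was not tested. Over the 24 NRF2 targets tested the medians were 0.21, -0.09 and -0.22. Of the 24, 5 genes were lower and 5 higher in all 3 numbers (14.6% and 15.3% of all genes).

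Cell cycle genes had a median change above 0. The median effect of 31 genes was 0.73 at 24 h and 0.04 at 12 h, and the median change was 0.48, with 1.04 in number 2, 0.58 in number 3 and -0.21 in number 1. All 3 double differences were above 0 for 7 of the 31 (15.3% of all genes) and below 0 for none, and 6 had an unadjusted p under 0.05 in the higher direction (3.28% of all genes). Top2a, a topoisomerase of dividing cells, had 502, 499.8 and 560.9 in CLA against 555.2, 99.8 and 217 in LA at 24 h. The intensities at 12 h were 317.1, 145.6 and 247.3 in CLA against 364.5, 97.3 and 297.3 in LA. CLA stood well above LA at 24 h in numbers 2 and 3, and the groups overlapped at 12 h. The change was 1.17 ± 0.38 (adjusted p = 0.674), from 0.02, 1.78 and 1.73. Ccnb2, a mitotic cyclin, had 0.999 ± 0.35, and the mitotic kinases Aurkb and Bub1b had 0.83 ± 0.40 and 1.10 ± 0.48. Each of these 4 genes had a double difference between -0.35 and 0.04 in number 1. The direction of the list's median thus rests on numbers 2 and 3. Without number 1 it was 0.88, and the immediate early median was then -1.05.

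**Figure D4:**
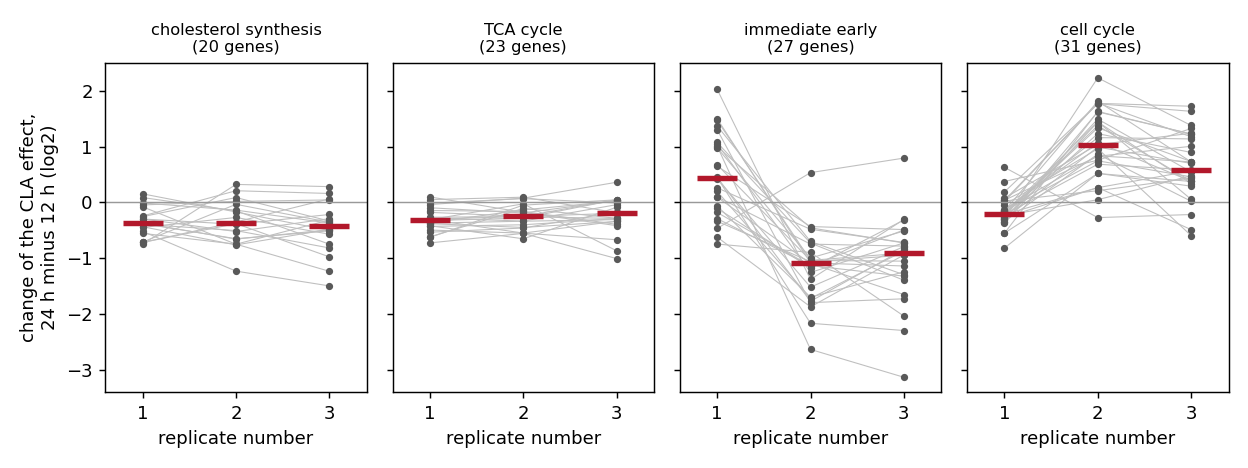
Change of the CLA effect, 24 h minus 12 h (log2, vertical axis), by replicate number (horizontal axis) for every tested gene of 4 lists. Grey lines join a gene's 3 double differences and red bars are the list medians; the cholesterol and TCA cycle bars stay between -0.43 and -0.19, whereas the immediate early bars are at 0.45, -1.09 and -0.91 and the cell cycle bars at -0.21, 1.04 and 0.58.

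Several lists had medians near that of all genes. The median change was -0.08 for the integrated stress response (42 genes), and 0.10, -0.14 and -0.17 in numbers 1, 2 and 3. There Ddit3 (CHOP) had -0.54 ± 0.26 and Trib3, a pseudokinase induced by the same pathway, -0.62 ± 0.29. The other probe set of Ddit3 gave 0.26 and that of Trib3 -0.70. Number 1 stood apart in both genes: the 24 h effects were 1.27, -0.03 and -0.28 for Ddit3 and 1.82, -1.18 and -0.85 for Trib3. The median change was -0.02 for NRF2 targets (24 genes) and -0.01 for inflammatory genes (24 genes; 0.26, -0.42 and 0.10 by number). It was 0.03 for the proteasome (31 genes), 0.009 for chaperones (29 genes) and -0.06 for insulin signalling (20 genes). Macrophage markers had 0.07 (7 genes) and fibroblast markers 0.08 (23 genes). By number these were 0.48, -0.14 and -0.11 for macrophage markers and 0.29, -0.11 and 0.12 for fibroblast markers. Further from the median of all genes, peroxisome genes had -0.15 (23 genes). For p53 targets it was -0.11 (16 genes), with 0.05, -0.19 and -0.22 by number. Clock genes had a median change of -0.32 with 13 of 15 below 0 (5988 of all 11906 genes). By number the medians were -0.13, -0.24 and -0.30. Of the 15 genes, 4 were lower in all 3 numbers and 0 higher (14.6% and 15.3% of all genes). Their median difference between 24 h and 12 h was -0.09 in CLA and 0.25 in LA. Nfil3, a repressor tied to the clock, had a change of -0.81 ± 0.21. The inflammatory list spread widely around its median, with changes between -1.60 and 1.82. Cxcl1, a neutrophil chemokine, lay at its low end with -1.60 and double differences of -0.37, -2.51 and -1.92 (adjusted p = 0.665, 0.103 with a trend). Il6 had -0.06 ± 0.52 and Ccl2, the monocyte chemokine, -0.26 ± 0.46, and both had double differences on both sides of 0. Irs2, the insulin receptor substrate, had 1.04 ± 0.56, with double differences of 0.04, 0.25 and 2.82. It was dim, with LA intensities of 1.7, 57.8 and -6.4 at 24 h and -6.8, 54.8 and 25.9 at 12 h, and with the offset at the 75th percentile the change was 0.34. Of 30 key genes, 27 had a mean change below 0 (5988 of all 11906 genes) and 15 were lower in all 3 numbers (14.6% of all genes). Only 1, Pck1, was higher in all 3 (15.3% of all genes), with 0.50 ± 0.20. Pck1, the enzyme of glyceroneogenesis, had intensities of 17.2 or less on all 12 arrays. Its other probe sets gave changes between -0.73 and 0.33. Esrra, a nuclear receptor of mitochondrial genes, had -0.33 ± 0.22, and its other probe set gave 0.28.

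The naming rule also picked the genes with the smallest p in the fit with the pooled spread, and none of them passed. Besides Camp, Mrap and Hs3st2, described above, these were mostly dim: 15 of the 20 had a mean intensity under 20, close to the offset. The size of such a change depends on the offset: at the 75th percentile it was -0.44 for Gm4981 and 0.58 for Ccl5, which have -1.89 and 1.82 below. Among the lower ones, Gm4981 had 0.1, 1.1 and -1 in CLA against 24.6, 4.7 and 7.1 in LA at 24 h, and 11.2, 6.8 and 14.1 in CLA against -1.1, -4.3 and -2.3 in LA at 12 h. It was thus below LA at 24 h and above it at 12 h, with a change of -1.89 ± 0.27, but with the fourth 12 h pair as the 12 h value the change was 0.65. Mycn, a Myc family factor, had -1.26 ± 0.16, Fgf3, a fibroblast growth factor, -1.20 ± 0.17, and Igfbp2, a carrier of insulin-like growth factors, -1.35 ± 0.18. The other probe sets of Fgf3 gave changes between -0.27 and 0.37. Hephl1, Prrg3 and Nmnat3 had -1.42 ± 0.28, -0.99 ± 0.17 and -0.87 ± 0.19, and the other probe set of Nmnat3 gave 0.19. Olr1, a scavenger receptor for oxidised lipoprotein, was brighter, with a mean intensity of 73.7 and an effect of 0.35 at 24 h and 1.55 at 12 h. Among the higher ones, Ccl5, a T cell chemokine, had 58.2, 8.1 and 27.7 in CLA against -0.4, 1 and 2.8 in LA at 24 h, and 12.9, 6.1 and 24.8 in CLA against 11.9, 10.2 and 49.8 in LA at 12 h. CLA was above LA at 24 h in every number, while the groups overlapped at 12 h, and the change was 1.82 ± 0.28. C77080 had 1.17 ± 0.22 and Efna4, an ephrin, 1.55 ± 0.19. Lce1g, Tuft1, Zfp109, Angel1, Zfp112 and Comp had changes between 0.88 and 1.47. In CLA at 24 h Angel1 had 14.9, 11.2 and 20.1, with 7.4 or less on the others of the 12 arrays. Lce1g had 13.9, 32.4 and 36.5 there and 15.3 or less on the others of the 12. In the fourth 12 h pair, which is not among these 12, the CLA effect was 1.04 for Angel1 and 1.82 for Lce1g. A gene had to exceed the array median on at least 3 arrays to be tested, so nothing is read from these 2 genes being high in that group.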

How the data were processed

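Total RNA was hybridised as biotinylated cRNA to Affymetrix arrays, per the labels' protocols. The authors deposited linear intensities, 1 for each probe set of an array. A background had been subtracted, since 21.6% of the values lie at or below 0. The sources used here do not give how probes were summarised. The authors also deposited a table for each time with a ratio of the combined groups and its log10, and a scaled signal for each group. These come from Rosetta Resolver, per the file names, with no stated direction. Their log10 ratio correlated with CLA over LA at 24 h (r = 0.96) and 12 h (r = 0.94) over 11276 bright probe sets, so it was read as CLA over LA.

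Of 45101 probe sets, 34958 had 1 gene symbol in the platform annotation. After flooring at 0 and adding 9.75 (the 50th percentile), log2 was taken and all 25 arrays were quantile normalised. The brightest probe set on average stood for each gene, and genes above the array median on at least 3 of the 12 arrays were tested (11906 of 18193). Double differences were tested with limma 3.58.1 in R 4.3.3 with Benjamini-Hochberg adjustment at 0.05 (2 residual degrees of freedom), and with the spread pooled over 11 pairs (7 residual degrees of freedom). Replicate numbers pair the samples: deviations from the group means correlated at 0.57 to 0.75 between arrays of the same number (18 pairs) and at -0.55 to -0.15 between numbers (36 pairs). The labels do not say what a number shares. No 2 arrays were duplicates (highest Spearman correlation 0.92). The number of arrays limits the precision. Alternatives changed the offset, normalisation, filter, probe set rule, variance prior, replicate block, 12 h pair and replicates. The members and gene lists were chosen with earlier results of these data known. Named genes are up to 10 per direction by test and then by the smallest p of the pooled fit, up to 4 members of each of 24 lists by that p, and 30 key genes. Others, chosen after their values were seen, are the genes that passed with a trend and Hmgcs1. Promoter sequences are from RefSeq.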

Additional observations from a re-analysis of the deposited data

Results flagged for a closer look

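For 9 named genes the CLA effect lay on opposite sides of 0 at 24 h and at 12 h in all 3 replicate numbers. These genes were named for a small p of this same difference, among genes whose 3 double differences share a sign. Nothing is therefore read from their number. The difference itself was tested and none of the 9 passed after adjustment in limma, and all were dim. The change of the CLA effect, 24 h minus 12 h, was below 0 for Gm4981 (-1.89), Hephl1 (-1.42), Igfbp2 (-1.35), Mycn (-1.26), Fgf3 (-1.20) and Nmnat3 (-0.87). It was above 0 for Efna4 (1.55), Angel1 (0.98) and Zfp109 (0.95). Angel1 had 14.9, 11.2 and 20.1 in CLA at 24 h and 7.4 or less on the others of the 12 arrays used. A gene needed at least 3 arrays above the median to be tested, so nothing is read from Angel1 being high there. The fourth pair at 12 h lay on the same side of 0 as the 24 h mean for 5 of the 9: Gm4981 (-1.55), Fgf3 (-0.52), Igfbp2 (-0.49), Efna4 (0.85) and Angel1 (1.04). With that pair as the 12 h value, the change turned sign for Gm4981 and Angel1, and for Efna4 the 24 h effect of 0.87 lay beside 0.85 at 12 h.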

How the results depend on the processing

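No gene passed as designed or with the spread pooled, and the count stayed at 0 without normalisation, with median centring, with either filter, with averaged probe sets and with replicate 4 of 12 h included. Without a replicate block (12 arrays, 4 group means) 0 genes passed and 106 had an unadjusted p under 0.05, and with an additive replicate block, chosen after seeing the data, 0 passed and 646 did. The count moved under a trend (2 higher, 18 lower), under the offset at the 75th percentile (2 higher, 8 lower) and under both together, chosen after seeing the data (2 higher, 13 lower). With the offset at the 25th percentile 1 lower gene passed in the pooled fit. Leaving out each replicate in turn gave 0 without a trend, and with a trend, also chosen after seeing the data, 0 to 218 higher and 0 to 276 lower genes; the lowest counts came without number 3 and the highest without number 1. Among named genes, the change turned sign with replicate 4 as the only 12 h value for Gm4981 (0.65), Lce1g (-0.34), Angel1 (-0.46), Cebpa (-0.037), Lpin1 (0.014), Ptgs2 (0.32), Atf3 (0.14), Il6 (0.068), Ccl2 (0.39), Esrra (0.46) and Mogat1 (1.14). It turned with median centring for Cebpa (-0.000412), Srebf1 (-0.013) and Il6 (0.049), without normalisation for Il6 (0.12) and with averaged probe sets for Fabp4 (0.15). Leaving out each number in turn, with or without a trend, moved it across or to 0 for Lpin1 (-0.34 to 0.29, highest without number 1), Cebpa (-0.14 to 0.36), Il6 (-0.66 to 0.73), Ccl2 (-0.90 to 0.36) and Egr1 (-0.99 to 0.16, these last 4 on the other side without number 2), Srebf1 (-0.091 to 0.27, below 0 without number 2 at -0.026 or number 3) and Fabp4 (-0.073 to 0, highest without number 3). The cause was not tested. The list medians for cholesterol synthesis (-0.42 to -0.30), fatty acid synthesis (-0.46 to -0.23), TCA cycle (-0.56 to -0.22) and cell cycle (0.21 to 0.88) kept their sign in 22 of 22 alternatives. Some of these alternatives change only the variance prior or the replicate block, which leaves each gene's mean change as it was. Those could not have moved a median, so the 22 are not separate checks.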
